A study of Rattus norvegicus with 8 samples.

Results

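Autophagy genes were followed in NR8383, a line of alveolar macrophages first obtained by washing out a rat lung, between 2 doses of ZnO. The 41 genes cover the steps of autophagosome formation, the receptors that select cargo, the fusion with the lysosome and TFEB with its relative Tfe3, and were taken by name; the list was drawn up with earlier results of these data known. A probe was assigned to a gene where its accession was a rat RefSeq transcript of that gene. This gave 56 probes for 37 of the 41 genes. No probe was matched in this way to Pik3r4, Atg2b, Atg4b or Epg5. In all, 13460 genes passed a filter on dim probes and were tested. Of these, 7982 had a gene symbol. The rest were counted by accession, so a gene may be counted more than once. Of the 37 genes, 29 passed the filter and were tested. The other 8 genes, namely Ulk2, Rb1cc1, Atg13, Uvrag, Wipi1, Atg5, Atg12 and Stx17, were too close to background: none of their probes cleared it on 3 or more arrays of a dose, so they have no value here. One group was exposed to ZnO at 4 µg/mL and the other at 16 µg/mL, each for 4 h, with 4 one-colour arrays per dose that the design text calls biological replicates. Untreated control arrays were not analysed here, so each value below compares the higher with the lower dose. The sample descriptions give 20 passages for the cultures at 4 µg/mL and 200 for those at 16 µg/mL, and the doses were hybridised on separate slides with separate scans. Dose, passage number, slide and scan cannot be told apart.

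Macroautophagy encloses cytoplasm in a double membrane, the autophagosome, and delivers it to the lysosome. The ULK1 complex starts the process when mTORC1 is inactive, the Beclin 1 and Vps34 lipid kinase complex marks the growing membrane, and conjugation enzymes attach proteins of the ATG8 family (LC3 and GABARAP) to it. Receptors such as p62 bridge cargo to ATG8 proteins, a SNARE complex fuses the vesicle with the lysosome, and TFEB and TFE3 drive transcription of lysosomal and autophagy genes. In macrophages the same machinery handles engulfed particles and damaged organelles.

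The arrays differed in brightness. The share of probes clearing background ran from 31.5% to 39.3% per array, and no spot was saturated. The 75th percentile of the processed signal was 313 to 516 at 4 µg/mL and 151 to 381 at 16 µg/mL, with ZnO 16 replicates 2 and 3 the dimmest, at 151 and 190. Levels are given below as log2 signal minus the array's own 75th percentile, and differences are 16 minus 4 µg/mL on this log2 scale. A low-signal area on ZnO 4 replicate 4 covered 942 spots, none of them a probe of the 29 genes that passed the filter. The probes of Atg5 and Atg13, genes too dim to test, lay in it. Atg5 cleared background on 2 arrays at 4 µg/mL, where the filter asked for 3. Any part of this area in that was not tested. Of 12 macrophage markers 10 were tested, while Adgre1 and Marco cleared background on none of the 8 arrays. The summed macrophage marker signal, relative to the 75th percentile, ran from 335 to 396 at 4 µg/mL and from 343 to 445 at 16 µg/mL, with 0 markers higher and 2 lower by limma (unadjusted, 1 and 3). The 2 that fell were Cd68, a lysosomal membrane protein (-1.74, adjusted p = 2.1e-05), and Itgam, an integrin subunit (-0.52, adjusted p = 0.0142), and the sum is dominated by brighter probes such as those of Lyz2 and Tyrobp. Of 7 lung epithelial markers none passed the filter (sums of 0.1002 to 0.192 and 0.130 to 0.247). Of fibroblast markers 1 of 4 passed (0.269 to 0.504 and 0.219 to 0.315), of T cell markers 1 of 3 (0.141 to 0.197 and 0.0552 to 0.104) and of endothelial markers 2 of 3 (1.27 to 1.48 and 0.588 to 0.773). The T cell and endothelial sums were lower on all arrays at the higher dose. The T cell marker that passed was Cd3d, at a mean level of -3.95, while Cd3e cleared background on 0 arrays. The endothelial markers that passed were Pecam1 (-0.29) and Cdh5 (-3.23), while Kdr cleared background on 0 arrays. The part of these markers in the results was not tested. RNA came from whole cultures, so a change in the number of cells of a kind cannot be told apart from a change in RNA per cell.

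Relative to the 75th percentile, 15 of the 29 autophagy genes tested rose at 16 µg/mL and none fell, while without scaling between arrays or with scaling to spike-ins none rose and 4 fell. Wipi2, Atg14 and Gabarapl1 rose most, each by more than a log2 unit. The calls are limma's, at a Benjamini-Hochberg adjusted p under 0.05 over all genes. Of all genes, 41.7% were called with the 75th percentile, 19.8% higher and 21.9% lower. Unscaled, 1.7% of all genes were higher and 32.8% lower, and with spike-ins 1.66% and 37.8%. With the 75th percentile and an unadjusted limma p under 0.05, 16 of the autophagy genes were higher and 2 lower. Over all 13460 genes, 3290 were higher and 3514 lower at that threshold. The median difference was 0.55 over the 29 genes and 0.0042 over all genes, and 21 of the 29 differences were above 0. The 4 arrays of each dose did not overlap for 12 genes, 11 higher and 1 lower, against 39.9% of all genes in either direction and 18.5% higher. These are counts over the genes bright enough to test, not over all 41.

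**Figure D1:**
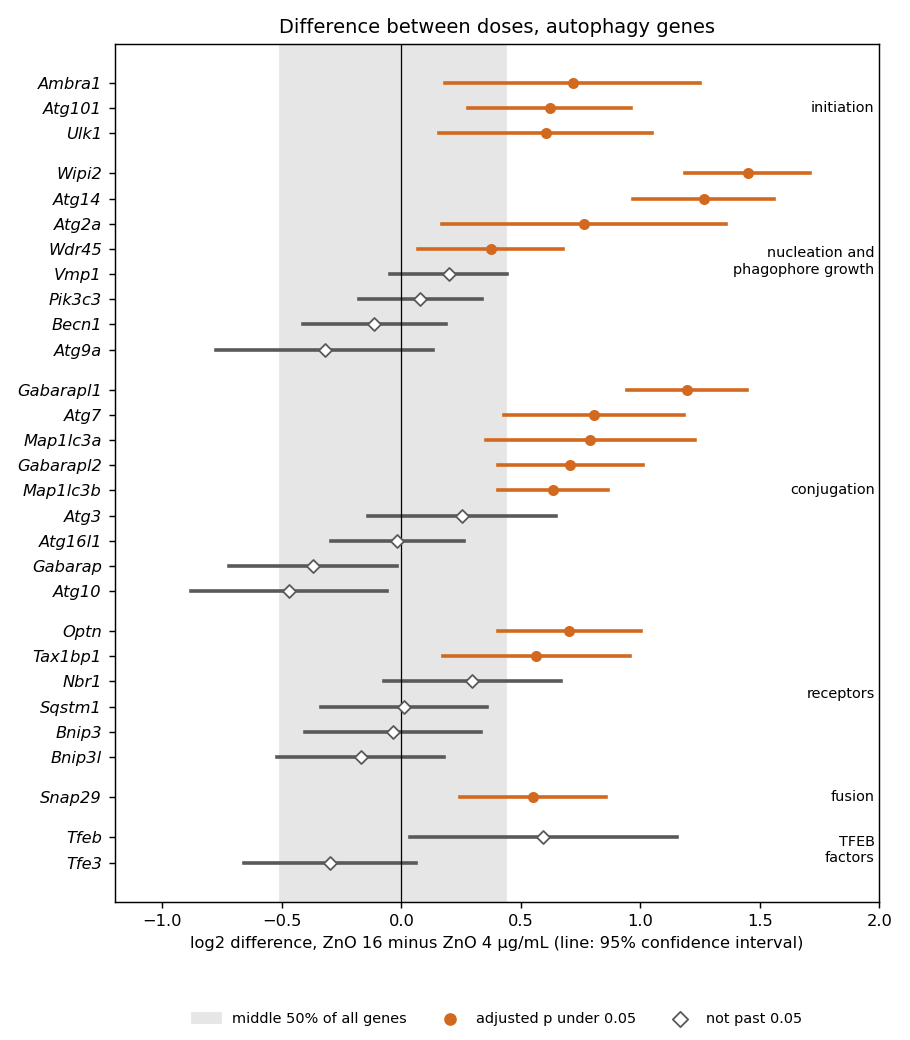
Log2 difference, ZnO 16 minus ZnO 4 µg/mL, for the 29 autophagy genes tested, grouped by step and relative to each array's 75th percentile; points are limma estimates, lines their unadjusted 95% confidence intervals, and the grey band spans the middle 50% of all genes (-0.51 to 0.44). The 15 filled points passed the adjusted threshold and all lie above 0 under this scaling, with Wipi2, Atg14 and Gabarapl1 farthest to the right; without scaling or with spike-in scaling 9 and 12 of these 15 lie below 0.

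The scaling between arrays set the sign of most of these differences. With no scaling the median over all genes was -0.75 and with spike-in scaling -0.80, and 9 and 12 of the 15 called genes had differences below 0. Over all genes, 2669 were higher and 2943 lower with the 75th percentile, against 3405 and 1980 with median scaling, 2779 and 1998 with normexp, 229 and 4417 unscaled and 224 and 5084 with spike-ins. Wipi2, Atg14 and Gabarapl1 stayed above 0 under all 6 scalings, with 0.69, 0.51 and 0.44 unscaled, none of them past the threshold there. The 4 genes that fell under both of these scalings were Atg9a, Atg10, Gabarap and Tfe3. Set against the median of all genes, the autophagy median was 0.55 higher with the 75th percentile, the median, no scaling and spike-ins. These settings differ by 1 factor per array, which shifts all genes alike, so this distance could hardly differ between them. With quantile normalization the distance was 0.52. With normexp, which here also replaced the processed signal by the median spot signal, the distance was 0.13 (0.28 against 0.15), with 11 genes higher and 1, Tfe3, lower. With normexp the calls of Atg2a (0.39, adjusted p = 0.161), Map1lc3b (0.28, adjusted p = 0.16), Gabarapl2 (0.16, adjusted p = 0.349) and Snap29 (0.09, adjusted p = 0.694) were lost. In all, 10 genes were called higher under each of the 75th percentile, median, quantile and normexp settings, namely Ulk1, Atg101, Ambra1, Atg14, Wipi2, Atg7, Map1lc3a, Gabarapl1, Optn and Tax1bp1.

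**Figure D2:**
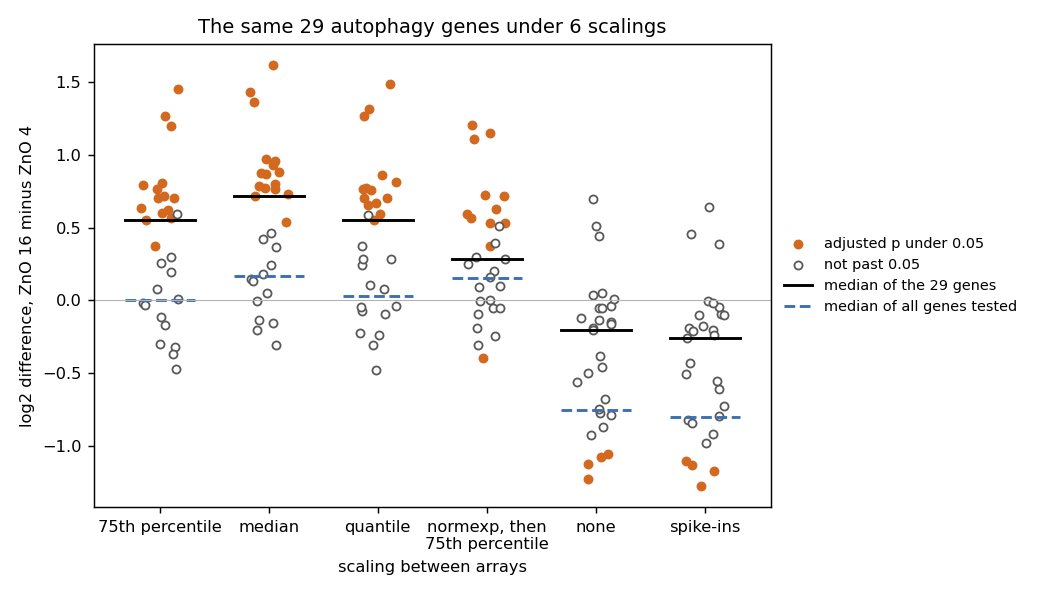
Log2 difference, ZnO 16 minus ZnO 4, of the same 29 autophagy genes (points, spread sideways for legibility) under 6 scalings between arrays; the black line is their median and the dashed blue line the median of all genes tested. The distance between the lines is about 0.55 in the main, median, unscaled and spike-in settings. These settings shift all genes alike, so the distance could hardly differ between them. With normexp it is 0.13. Most points lie above 0 in the first 4 columns and below 0 in the last 2.

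TFEB and TFE3 bind the E-box CACGTG, so promoter windows of the 41 genes were searched for it in RefSeq sequence of the GRCr8 assembly, on both strands, from 250 bases before to 50 after each annotated start. Windows were matched for 36 genes. CACGTG stood in the windows of 6 of them, namely Atg14, Atg3, Atg5, Bnip3, Epg5 and Snap29, against 6.42% of all 33469 windows. The longer palindrome TCACGTGA, which contains CACGTG, was found in Atg3, Epg5 and Snap29, against 0.777% of windows. Of the genes called higher, 2 of 14 with a window held CACGTG, as did 2 of 11 not called. The composite element of ATF4 and C/EBP factors, TGATGNAA, was found for 1 gene, Wdr45 (3.98% of windows). The antioxidant response element core TGACNNNGC was found for 6 genes, Ulk2, Vmp1, Atg4b, Atg10, Map1lc3b and Gabarap (12.1% of windows). A match describes letters in a window and is not a binding site.

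The stretches of 160 bases before the start are shown for the 3 genes with the largest differences and for Snap29 and Atg3, which hold the palindrome, the first called and the second not. They run 5′ to 3′ on the strand of the gene, with CACGTG in capitals.
Wipi2 (chr12:17053307-17053466, strand minus): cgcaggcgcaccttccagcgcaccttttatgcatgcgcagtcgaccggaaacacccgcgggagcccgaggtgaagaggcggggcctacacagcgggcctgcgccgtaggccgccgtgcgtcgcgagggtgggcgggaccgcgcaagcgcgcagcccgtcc
Atg14 (chr15:23306816-23306975, strand minus): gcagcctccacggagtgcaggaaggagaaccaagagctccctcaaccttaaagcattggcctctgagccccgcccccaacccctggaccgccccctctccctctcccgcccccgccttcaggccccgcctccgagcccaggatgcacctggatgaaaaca
Gabarapl1 (chr4:164666172-164666331, strand plus): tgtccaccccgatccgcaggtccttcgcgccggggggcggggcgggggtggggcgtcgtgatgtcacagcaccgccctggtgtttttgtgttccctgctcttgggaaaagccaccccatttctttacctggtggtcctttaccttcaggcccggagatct
Snap29 (chr11:97113196-97113355, strand minus): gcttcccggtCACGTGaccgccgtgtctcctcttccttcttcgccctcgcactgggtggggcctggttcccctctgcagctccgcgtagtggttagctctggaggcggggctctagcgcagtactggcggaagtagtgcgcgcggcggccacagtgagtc
Atg3 (chr11:69159281-69159440, strand minus): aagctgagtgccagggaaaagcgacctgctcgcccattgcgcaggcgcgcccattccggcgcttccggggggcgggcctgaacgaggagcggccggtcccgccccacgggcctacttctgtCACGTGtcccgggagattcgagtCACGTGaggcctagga
The E-box of Snap29 begins at position -150 from its start. Those of Atg3 begin at positions -39 and -16, and its difference of 0.25 was not called. The stretches of Wipi2 and Gabarapl1 hold none, and the E-box of Atg14 lies at position 7 past its start, outside the stretch shown. The E-box was present both in genes that rose and in genes that were not called, and absent from the windows of the other 2 genes with the largest differences. Whether it bears on the differences was not tested.

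Among initiation genes, all 3 that could be tested rose relative to the 75th percentile, where 19.8% of all genes did. All 3 had differences below 0 unscaled or with spike-in scaling. ULK1 is the protein kinase that starts autophagosome formation. Ulk1 read 0.97, 1.005, 1.26 and 1.40 on the 4 arrays at 4 µg/mL and 1.54, 2.09, 2.12 and 1.29 at 16 µg/mL, a difference of 0.60 (SE 0.20, adjusted p = 0.0341). Replicates 2 and 3 at 16 µg/mL were highest, and replicate 4 lay within the range of the lower dose. ATG101 stabilises the ULK1 complex. The Atg101 arrays read 0.77, 0.96, 0.82 and 1.03 at the lower dose and 1.16, 1.83, 1.64 and 1.43 at the higher, with no overlap and a difference of 0.62 (SE 0.15, adjusted p = 0.00947). AMBRA1 links the ULK1 complex to Beclin 1. Its gene, Ambra1, stood at -0.68, -0.42, -0.46 and -1.35 at 4 µg/mL and at -0.08, 0.26, 0.27 and -0.49 at 16 µg/mL, a difference of 0.72 (SE 0.24, adjusted p = 0.0353); the lowest array at 16 µg/mL overlapped the lower dose. The Atg101 call held whichever array was left out (differences 0.51 to 0.74). Ulk1 lost its call without ZnO 4 replicate 1, 2 or 3 (adjusted p = 0.0905, 0.0848 and 0.0589) and without ZnO 16 replicate 2 or 3 (adjusted p = 0.0859 and 0.0923). Ambra1 lost its call without ZnO 4 replicate 1 or 4 (adjusted p = 0.0667 and 0.0664) and without ZnO 16 replicate 1, 2 or 3 (adjusted p = 0.0575, 0.0833 and 0.0926). Ulk2, Rb1cc1 and Atg13, which encode a second ULK kinase, FIP200 and the regulatory subunit of the complex, were too dim to test.

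Of 8 tested genes for nucleation and growth of the phagophore membrane, 4 rose and 4 were not called. WIPI2 binds the lipid made by VPS34 and recruits the conjugation machinery. Wipi2 stood at -0.07, 0.05, -0.15 and 0.05 at 4 µg/mL and at 1.50, 1.37, 1.26 and 1.53 at 16 µg/mL. All higher-dose arrays lay far above all lower-dose arrays, and the difference of 1.45 (SE 0.12, adjusted p = 8.79e-06) was the largest of the 29 genes with this scaling. ATG14 directs the VPS34 complex to the site of autophagosome formation. Atg14 gave -1.11, -1.21, -1.098 and -0.87 at 4 µg/mL and 0.26, 0.15, 0.03 and 0.33 at 16 µg/mL, again without overlap, a difference of 1.26 (SE 0.13, adjusted p = 5.52e-05). Neither call was lost whichever array was left out (differences of 1.41 to 1.50 for Wipi2 and 1.22 to 1.33 for Atg14).

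ATG2A moves lipids into the growing membrane. Atg2a read 0.42, 0.68, 0.61 and 0.76 at the lower dose, and its higher-dose arrays read 1.07, 1.88, 1.94 and 0.62. They split, with replicates 2 and 3 well above and replicate 4 inside the range of the lower dose, and the difference was 0.76 (SE 0.27, adjusted p = 0.042). Its call was lost without any of ZnO 4 replicates 1 to 4 (adjusted p = 0.102, 0.0735, 0.0856 and 0.0503) and without ZnO 16 replicate 2 or 3 (adjusted p = 0.104 and 0.112). Wdr45, a relative of the WIPI proteins, had the smallest difference among the called genes, 0.37 (SE 0.14, adjusted p = 0.0493), and did not overlap between doses. It kept its call without ZnO 4 replicate 4 alone; without the other 7 arrays in turn, the adjusted p was 0.132, 0.0567 and 0.136 for ZnO 4 replicates 1 to 3 and 0.0853, 0.109, 0.072 and 0.0591 for ZnO 16 replicates 1 to 4. With the replicate numbers as a block the adjusted p of Wdr45 was 0.0603. Without a variance trend, Wdr45 (adjusted p = 0.0621), Atg2a (adjusted p = 0.0622) and Ulk1 (adjusted p = 0.0527) lost their calls.

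Becn1 and Pik3c3, of the same lipid kinase complex as Atg14, were not called. Becn1, which encodes the scaffold Beclin 1, read 1.01, 1.06, 1.08 and 1.14 at 4 µg/mL and 1.16, 0.91, 0.65 and 1.11 at 16 µg/mL. The doses overlapped and the difference was -0.11 (95% confidence interval -0.41 to 0.19, adjusted p = 0.525). Pik3c3, which encodes the kinase VPS34 itself, gave 0.56, 0.78, 0.75 and 0.83 and 0.77, 0.93, 0.71 and 0.82 at the 2 doses, a difference of 0.08 (interval -0.18 to 0.34, adjusted p = 0.616). Atg9a, a lipid scramblase carried on vesicles, differed by -0.32 (interval -0.77 to 0.13, adjusted p = 0.231). Vmp1, an endoplasmic reticulum scramblase, differed by 0.20 (interval -0.05 to 0.44, adjusted p = 0.176). Uvrag and Wipi1 were too dim to test.

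**Figure D3:**
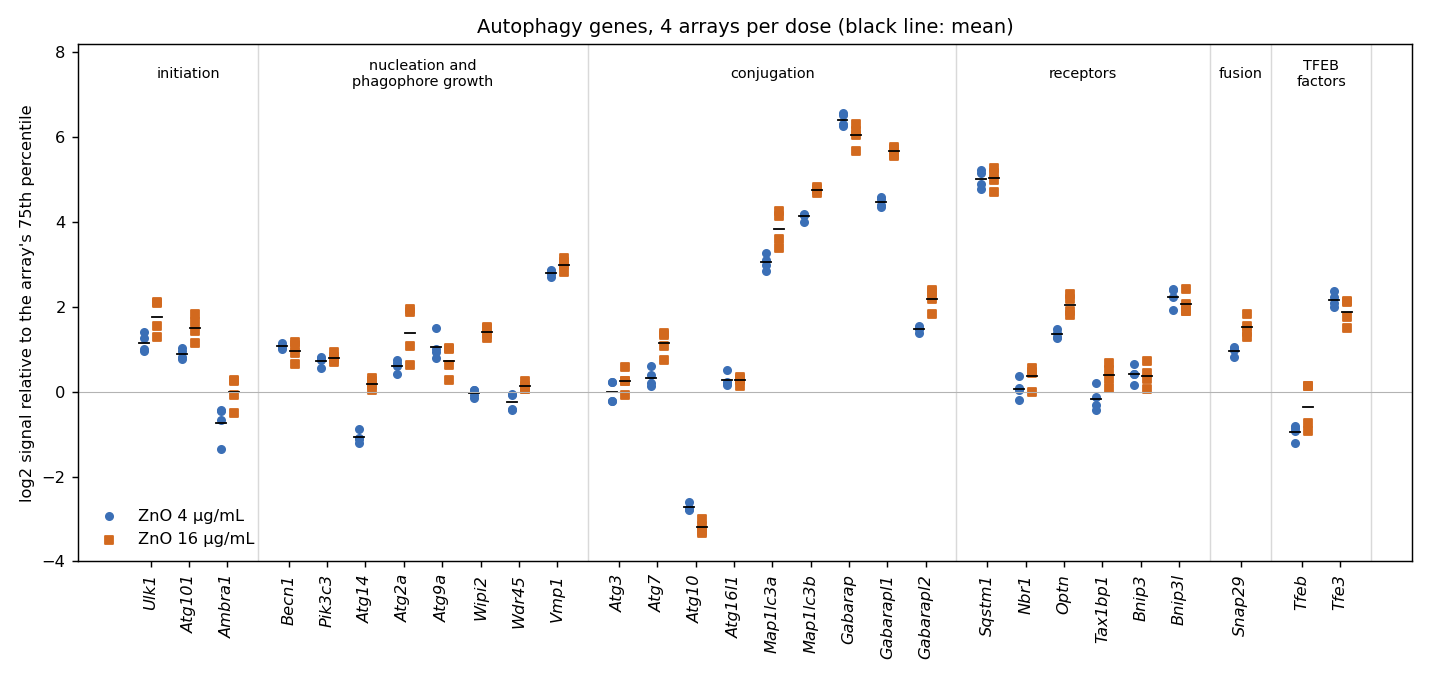
Log2 signal relative to the array's 75th percentile on each of the 4 arrays at 4 µg/mL (circles) and at 16 µg/mL (squares) for the 29 autophagy genes tested, with means as black lines; heights of different genes come from different probes and cannot be compared. Wipi2, Atg14, Gabarapl1 and Map1lc3b are clearly separated between doses under this scaling, whereas Ulk1, Atg2a and Tfeb are split among the arrays at 16 µg/mL.

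Of 9 tested conjugation genes, 5 rose with the 75th percentile scaling, against 19.8% of all genes, and 4 were not called. None of the 5 passed the threshold unscaled or with spike-ins. Of the 5, 4 were ATG8 family genes. Gabarapl1 encodes a GABARAP-like ATG8 protein. On the lower-dose arrays it read 4.41, 4.35, 4.58 and 4.54, and on the higher-dose arrays 5.78, 5.59, 5.57 and 5.72. The groups were well apart, with a difference of 1.195 (SE 0.11, adjusted p = 2.55e-05). Map1lc3b encodes LC3B, the usual marker of autophagosomes. It read 4.17, 4.16, 4.00 and 4.20 at 4 µg/mL and 4.70, 4.78, 4.77 and 4.83 at 16 µg/mL, a difference of 0.63 (SE 0.10, adjusted p = 0.000999). The spread within each dose was under 0.1 (SD 0.09 and 0.055, n = 4 each), and the doses did not overlap. The brightest probe of a gene is the one with the highest mean over all 8 arrays. For Map1lc3b another probe was brighter at 4 µg/mL (4.18 against 4.13), and its 3 other probes had differences of 0.09 to 0.29, none of them called.

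Map1lc3a encodes LC3A. It gave 2.98, 3.12, 2.86 and 3.27 at 4 µg/mL and 3.60, 4.14, 4.26 and 3.39 at 16 µg/mL, a difference of 0.79 (SE 0.20, adjusted p = 0.00963). Replicates 2 and 3 at the higher dose were highest, but all 4 exceeded the lower dose. Gabarapl2, another ATG8 gene, read 1.40, 1.51, 1.48 and 1.56 and 1.84, 2.35, 2.18 and 2.40 on its brightest probe, a difference of 0.71 (SE 0.14, adjusted p = 0.00262). This probe was the brighter only at 16 µg/mL (2.19 against 1.21). At 4 µg/mL a second probe was brighter (2.17 against 1.49), and it fell by 0.96 on the log2 scale, so the gene has no settled direction. Gabarap, the founding member of its subfamily, read 6.31, 6.58, 6.26 and 6.51 at 4 µg/mL and 6.06, 6.31, 6.16 and 5.67 at 16 µg/mL, with overlap. Its difference of -0.37 was not called (interval -0.72 to -0.02, adjusted p = 0.0861), but it was called lower without ZnO 16 replicate 2 (-0.45, adjusted p = 0.0435).

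Among the enzymes, Atg7, the E1-like activator of ATG8 proteins and ATG12, read 0.14, 0.40, 0.20 and 0.61 at 4 µg/mL and 1.08, 1.34, 1.38 and 0.75 at 16 µg/mL. All arrays at the higher dose lay above the lower dose, and the difference was 0.81 (SE 0.17, adjusted p = 0.00411). The E2-like enzyme of the ATG8 branch, Atg3, differed by 0.25 (interval -0.14 to 0.65, adjusted p = 0.273), and Atg16l1, which places the conjugation complex on the membrane, by -0.02 (interval -0.30 to 0.26, adjusted p = 0.924). Atg10, the E2-like enzyme of the ATG12 branch, read -2.60, -2.79, -2.77 and -2.74 at 4 µg/mL and -3.17, -3.28, -3.33 and -2.99 at 16 µg/mL. The doses did not overlap, in the downward direction, yet the difference of -0.47 missed the threshold (adjusted p = 0.0635). It passed without a variance trend (adjusted p = 0.0196) and with probes well above background on all 8 arrays (adjusted p = 0.0376). Atg5 and Atg12 were too dim to test.

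The ATG8 genes were also compared with each other within arrays, where scaling between arrays cancels. For each pair of the 5 genes the log2 ratio on each array was set against dose by an exact two-sided permutation test over 70 assignments, whose smallest p is 0.0286. The log2 ratio of Map1lc3a to Gabarap shifted by 1.16 between doses and that of Map1lc3b to Gabarap by 1.001. The ratio of Gabarap to Gabarapl1 changed by -1.56, from 1.95 ± 0.23 to 0.38 ± 0.35 (SD, n = 4 each), and that of Gabarap to Gabarapl2 by -1.07. All 4 of these shifts reached the smallest exact p of 0.0286 (adjusted p = 0.0476 over 10 pairs), as did Map1lc3b to Gabarapl1 (-0.56) and Gabarapl1 to Gabarapl2 (0.49). These ratios rest on 1 probe per gene. With the other probes of Map1lc3b and Gabarapl2, an alternative chosen after seeing the data, 8 ratios were tested. Against the other Gabarapl2 probe, the Gabarap ratio shifted by 0.59 (exact p = 0.0857), the opposite sign. The Gabarapl1 ratio to that probe shifted by 2.15 (exact p = 0.0286, adjusted p = 0.0327), in the same direction as on the brightest probe. Against the 3 other Map1lc3b probes, Gabarap shifted by -0.65 to -0.46 and Gabarapl1 by 0.91 to 1.105 (exact p = 0.0286 each, adjusted p = 0.0327), with the signs found on the brightest probe. Gabarap thus declined relative to Map1lc3a, Gabarapl1 and all 4 Map1lc3b probes, and relative to 1 of 2 Gabarapl2 probes. The remaining 4 pairs, which are Map1lc3a with Map1lc3b, Gabarapl1 or Gabarapl2, and Map1lc3b with Gabarapl2, had exact p of 0.20 to 0.77. A ratio shows unequal change and does not say which of the 2 genes moved.

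Of 6 cargo receptor genes, 2 rose, against 19.8% of all genes, and 4 were not called, with a median difference of 0.15. Optn encodes optineurin, a receptor for damaged mitochondria and bacteria. Its brightest probe read 1.30, 1.47, 1.39 and 1.26 at 4 µg/mL and 2.19, 1.91, 1.81 and 2.31 at 16 µg/mL, without overlap, a difference of 0.70 (SE 0.14, adjusted p = 0.00251). Tax1bp1, a receptor for ubiquitinated cargo, read 0.20, -0.43, -0.31 and -0.12 at the lower dose and 0.30, 0.10, 0.68 and 0.51 at the higher. Replicate 2 at 16 µg/mL lay within the lower dose, and the difference was 0.57 (SE 0.18, adjusted p = 0.0266). The Tax1bp1 call was lost without ZnO 4 replicate 2 or 3 (adjusted p = 0.0768 and 0.0745) and without ZnO 16 replicate 3 or 4 (adjusted p = 0.0732 and 0.0539). Both differences were below 0 unscaled or with spike-in scaling.

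Sqstm1 encodes p62, the best known receptor. On its brightest probe it stood at 4.91, 5.17, 5.22 and 4.78 at 4 µg/mL and at 5.000, 5.27, 5.15 and 4.70 at 16 µg/mL. The groups overlapped, and the difference was 0.01 (interval -0.34 to 0.36, adjusted p = 0.959). Nbr1, a p62 relative, differed by 0.30 (interval -0.07 to 0.67, adjusted p = 0.174). The mitochondrial receptors Bnip3 and Bnip3l differed by -0.03 (interval -0.40 to 0.33, adjusted p = 0.885) and -0.17 (interval -0.52 to 0.18, adjusted p = 0.411).

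In the fusion group 1 gene was tested. Snap29, a SNARE of autophagosome and lysosome fusion, read 0.98, 0.83, 1.05 and 1.01 at 4 µg/mL and 1.54, 1.41, 1.29 and 1.84 at 16 µg/mL. The doses did not overlap, and the difference was 0.55 (SE 0.14, adjusted p = 0.0096), below 0 unscaled (-0.20) or with spike-in scaling (-0.25). Its SNARE partner Stx17 was too dim to test.

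Neither TFEB factor was called by limma (unadjusted, 1 of 2 passed). Tfeb read -0.85, -0.92, -1.203 and -0.80 at 4 µg/mL and -0.74, 0.14, 0.13 and -0.92 at 16 µg/mL. The mean of replicates 2 and 3 at the higher dose was 0.97 above that of replicates 1 and 4, of which replicate 4 lay within the range of the lower dose and replicate 1 just above it. The difference was 0.59 (interval 0.04 to 1.15, adjusted p = 0.0815). Tfeb was called higher with median scaling (0.76, adjusted p = 0.00881) and without ZnO 16 replicate 4 (0.79, adjusted p = 0.0218). Tfe3 differed by -0.30 (interval -0.66 to 0.06, adjusted p = 0.164). It was called lower unscaled, with spike-in scaling and with normexp. The same held without both ZnO 16 replicates 2 and 3, an alternative chosen after seeing the data.

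The higher-dose arrays were split for many of the genes. For 11 of the 29 genes, ZnO 16 replicates 2 and 3 were the highest of the 4, and for 9 genes replicates 1 and 4 were. The first set holds Ulk1, Atg101, Ambra1, Atg2a, Atg7, Map1lc3a and Tfeb, with Atg9a, Gabarap, Sqstm1 and Tfe3. The second holds Wipi2, Atg14, Gabarapl1, Optn and Snap29, with Becn1, Atg10, Bnip3 and Bnip3l. The same count was not made over all genes, so the split cannot be taken as particular to the autophagy genes. Replicates 2 and 3 were also the dimmest arrays, and whether brightness bears on the split was not tested. Without both of them, an alternative chosen after seeing the data, 9 genes were higher and 2, Gabarap and Tfe3, lower, against 13.3% of all genes higher. The 9 were Wipi2 (1.55), Atg14 (1.37), Gabarapl1 (1.28), Optn, Snap29, Gabarapl2, Map1lc3b, Atg7 and Tax1bp1. Over the 8 settings that each left out 1 array, 10 of the 15 calls were kept in every one, those of Atg101, Atg14, Wipi2, Atg7, Map1lc3a, Map1lc3b, Gabarapl1, Gabarapl2, Optn and Snap29.

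Several genes had more than 1 probe, and these did not always move together. Among 8 genes with several probes past the filter, 13 further probes could be compared with the brightest, and 4 of them were called higher and 2 lower. The calls of further probes come from a separate limma fit, adjusted over all passing probes. Gabarapl2 showed the sharpest contrast. Its second probe read 2.22, 2.14, 2.28 and 2.03 at 4 µg/mL and 1.41, 1.198, 0.90 and 1.33 at 16 µg/mL, a difference of -0.96 (SE 0.13, adjusted p = 0.000352). It fell where the other probe rose, and the within-array log2 ratio of the 2 probes shifted by 1.67.

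For Sqstm1 both other probes rose. The larger change was on a probe that read 2.53, 2.67, 2.87 and 2.72 at 4 µg/mL and 3.74, 3.89, 3.89 and 4.12 at 16 µg/mL, a difference of 1.21 (SE 0.12, adjusted p = 4.11e-05), and the other differed by 0.33 (SE 0.12, adjusted p = 0.0454). So the p62 gene was not called on its brightest probe and was called on both others, and it was called on the mean of its probes (0.52, adjusted p = 0.00505). Of the other 2 Vmp1 probes, 1 rose (0.997, adjusted p = 0.00525) and 1 fell (-0.66, adjusted p = 0.0369). A second Nbr1 probe rose by 0.47 (adjusted p = 0.0147). The other Optn probes differed by -0.26 and 0.37, the latter with 1 array missing at 16 µg/mL, and neither was called. Other probes of Bnip3 (0.46) and Atg9a (-0.15) were not called.

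Within-array ratios of the brightest to each other probe could be tested for 12 of the 13. For 9 of the 12 the exact two-sided permutation p was the smallest possible, 0.0286 (adjusted p = 0.0381). Scaling by 1 factor per array does not alter these ratios. The exceptions were Atg9a (exact p = 0.114), Nbr1 (exact p = 0.257) and the Sqstm1 probe of smaller change (exact p = 0.0571). With the mean of all passing probes in place of the brightest, the calls of Gabarapl2 (-0.13, adjusted p = 0.381) and Optn (0.36, adjusted p = 0.078) were lost, and Sqstm1 and Nbr1 (0.38, adjusted p = 0.0444) were gained. The Sqstm1 probe of smaller change and the Vmp1 probe that rose were annotated to other transcript records than the brightest probes. Where on the transcript each probe lies was not examined.

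**Figure D4:**
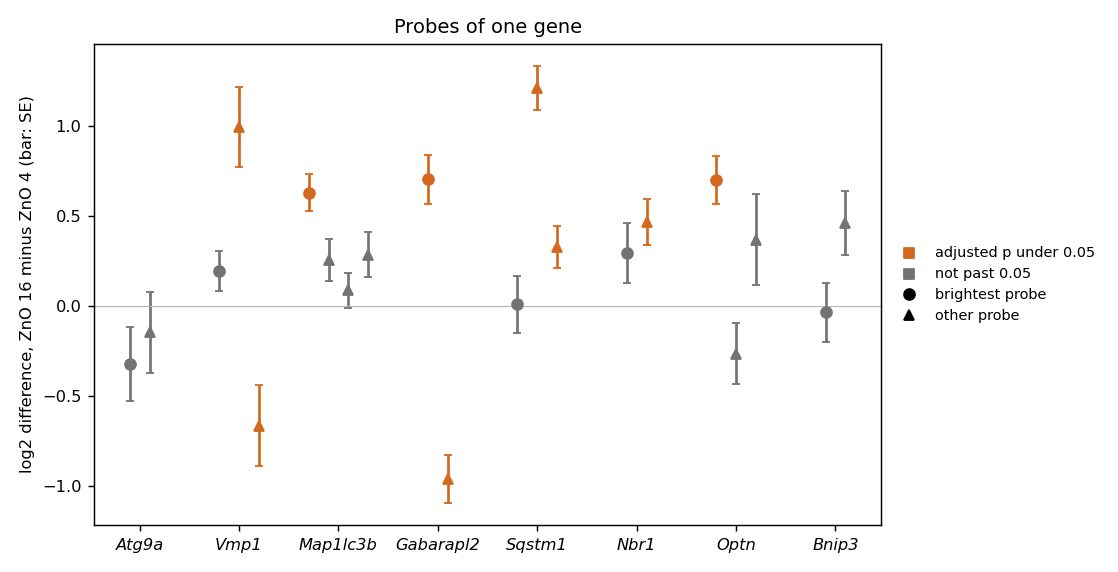
Log2 difference, ZnO 16 minus ZnO 4 relative to the 75th percentile, for every passing probe of the 8 autophagy genes with more than 1; circles are the brightest probe of each gene, triangles the others, bars standard errors. Probes of Gabarapl2 lie on opposite sides of 0 (0.71 and -0.96), and those of Sqstm1 run from 0.01 to 1.21; under a scaling that shifts all genes these positions move together.

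Genes linked to autophagy outside the 41 were described from 5 lists. Of 75 tested, 20 were higher and 8 lower, with a median difference of 0.15, against 19.8% of all genes higher and 21.9% lower. Unscaled, 3 were higher and 14 lower (all genes, 1.7% and 32.8%), and with spike-ins 3 and 18 (all genes, 1.66% and 37.8%). The list for mTORC1 and nutrient control, the signalling that holds ULK1 in check, had 11 of 25 higher and 3 lower, with a median of 0.29. Unscaled it had 3 higher and 4 lower. The list holds the kinase gene Mtor as well as genes of mTORC1 inhibitors, so these counts do not measure that signalling. Ddit4, which encodes the mTORC1 inhibitor REDD1, read -2.16, -2.16, -2.20 and -2.07 at 4 µg/mL and 2.05, 2.42, 2.32 and 2.41 at 16 µg/mL. The difference of 4.45 (SE 0.13, adjusted p = 3.18e-08) stayed called in every setting, from 3.62 with normexp to 4.74 with the mean of probes. Trib3, a pseudokinase that binds AKT, rose by 2.94 (SE 0.19, adjusted p = 2.01e-06) and was called unscaled too (2.19). The 3 genes lower, named after their values were seen, were Mtor, the kinase itself (-1.15), Tsc1, a subunit of the complex that inhibits it (-0.90), and Prkaa1, a catalytic subunit of AMPK (-0.90). The Mtor probe cleared background on 4 arrays at 4 µg/mL but on 2 at 16 µg/mL, so the size of its fall is uncertain. The Mtor call was lost with normexp (0.01, adjusted p = 0.984). Those of Tsc1 and Prkaa1 were lost with median scaling (adjusted p = 0.069 and 0.0688) and with the mean of their probes (-0.18 and 0.13).

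Further core factors had 3 of 15 higher and 1 lower (median 0.07), a share higher close to the 19.8% of all genes. Smcr8, a partner of C9orf72, rose by 1.48 (SE 0.25, adjusted p = 0.00117), and was not called unscaled (0.73, adjusted p = 0.222). Sh3glb1, which encodes a membrane-bending partner of UVRAG, fell by 1.101 on the log2 scale (SE 0.14, adjusted p = 0.000174), a call lost with the mean of its probes (-0.43, adjusted p = 0.0523). Further receptors had 3 of 11 higher and 3 lower (median -0.17). Fkbp8, an outer mitochondrial receptor, rose by 1.02 (SE 0.17, adjusted p = 0.00101), and was not called unscaled (0.27, adjusted p = 0.548). Wdfy3, an adaptor for aggregates, fell by 1.28 on the log2 scale (SE 0.41, adjusted p = 0.0288). Its call was lost with normexp (-0.22, adjusted p = 0.54), with median scaling (adjusted p = 0.0507) and without any of ZnO 4 replicates 1, 2 and 3 (adjusted p = 0.0743, 0.081 and 0.086) or ZnO 16 replicates 3 and 4 (adjusted p = 0.0521 and 0.0656).

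Tethers and fusion factors had 2 of 11 higher and 0 lower by limma (unadjusted, 3 and 0), with a median of 0.13; the share higher is again near the 19.8% of all genes. Vps11, a core subunit of the HOPS tether, rose by 0.63 (SE 0.14, adjusted p = 0.00529), and Tecpr1, a tether of autophagosomes to lysosomes, by 0.54 (SE 0.12, adjusted p = 0.00591). Both were below 0 unscaled (-0.12 and -0.22), and Tecpr1 was not called with normexp (0.24, adjusted p = 0.153). Relatives and regulators of TFEB had 1 of 13 higher and 1 lower (median 0.21). Ywhab, a 14-3-3 protein of the kind that retains TFEB in the cytoplasm, fell by 1.07 on the log2 scale (SE 0.12, adjusted p = 8.85e-05).

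**Figure D5:**
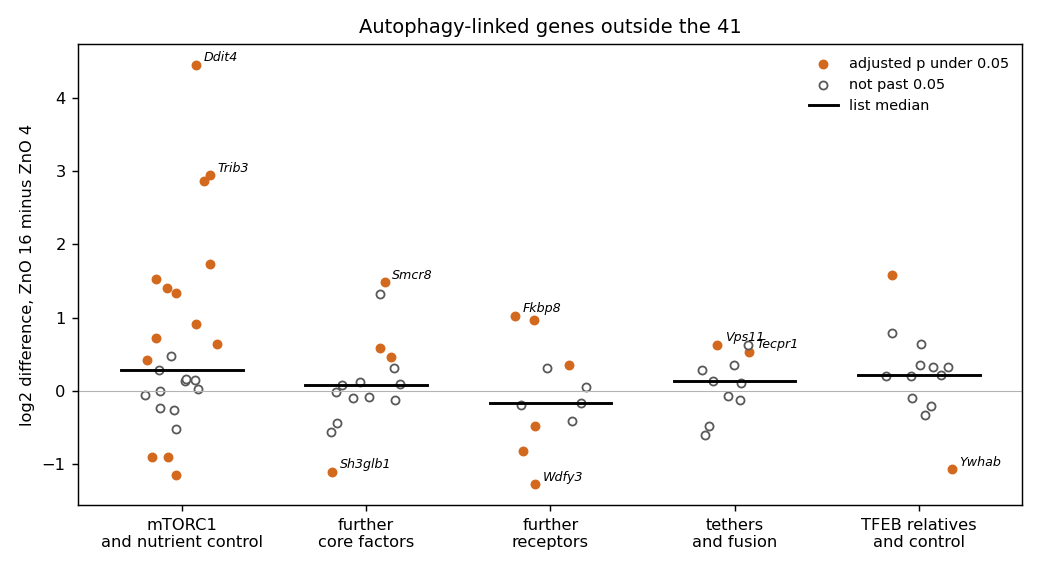
Log2 difference, ZnO 16 minus ZnO 4 relative to the 75th percentile, of 75 autophagy-linked genes in 5 lists (points, spread sideways), with list medians as black lines; names mark called genes with the largest differences in each list, at most 2 per list. Ddit4 (4.45) and Trib3 (2.94) lie highest, and the list medians lie between -0.17 and 0.29; unscaled, 3 of the 75 genes were higher and 14 lower.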

How the data were processed

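RNA of NR8383 cells was hybridised to one-colour Agilent arrays, one per sample. Per the submitters' processing notes, signals were extracted with Agilent Feature Extraction 11.0.1.1. The deposited files hold the processed signal intensity of each spot, background-subtracted by that program, with median spot and background signals and flags for spots well above background, saturated or outlying beside it. The genome build in the headers is older than GRCr8, so no coordinates were joined to probes. RefSeq's GRCr8 gene table named 46.3% of 45598 probes; probes it did not name kept their accession.

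Control spots were left out and flagged spots set to missing. Log2 processed signals were scaled to each array's 75th percentile, and spots of a probe were averaged. Probes had to be well above background on at least 3 of 4 arrays of 1 dose, and the probe with the highest mean over all 8 arrays, called the brightest, stood for a gene. Doses were compared with limma 3.58.1 (lmFit, and eBayes with a trend) in R 4.3.3, with Benjamini-Hochberg adjustment over 13460 genes. Further probes of a gene were judged in a separate fit of the same model, adjusted over all passing probes. The p-values are two-sided. The test was tried on simulated data with independent noise for each gene. That setting held neither the brightness difference between doses nor the split of the higher-dose arrays, so it does not bear on them. With 4 arrays per dose, the number of arrays limits the precision.

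Arrays were grouped by the dose in their titles. The genes and lists were chosen with earlier results of these data known. All 41 genes were accounted for, and 8 array values were printed for called genes with a difference of at least 0.5 and for 1 or more genes not called in each step; in lists outside the 41, the 2 called genes with the largest differences were named, apart from 1 gene that is not reported here. Alternatives covered scaling, background, probe choice, filters, flags, the low-signal area, the variance model, a replicate block and each array left out. Protein sequences of the ATG8 family were not analysed here. In 58 groups of 4 values, no sample stood apart by Dixon's test. That test looks for 1 outlying value, so it cannot show a split of 2 arrays against 2.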

Additional observations from a re-analysis of the deposited data

How the results depend on the processing

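Of the 15 calls, 10 held whichever single array was left out, while none held unscaled or with spike-in scaling. Without scaling, 0 autophagy genes were higher and 4 lower, and the differences of Ulk1 (-0.15), Atg101 (-0.13), Ambra1 (-0.038), Wdr45 (-0.38), Map1lc3b (-0.12), Gabarapl2 (-0.048), Optn (-0.051), Tax1bp1 (-0.19) and Snap29 (-0.20) turned negative. With spike-in scaling, again 0 were higher and 4 lower, and Ulk1 (-0.20), Atg101 (-0.19), Ambra1 (-0.089), Atg2a (-0.042), Wdr45 (-0.43), Atg7 (-0.00018), Map1lc3a (-0.015), Map1lc3b (-0.17), Gabarapl2 (-0.10), Optn (-0.10), Tax1bp1 (-0.24) and Snap29 (-0.25) turned negative. The mean of all passing probes turned Gabarapl2 to -0.13. Over all genes, 2669 were higher and 2943 lower; the split was 3405 and 1980 with median scaling, 2779 and 1998 with normexp, 229 and 4417 unscaled, and 224 and 5084 with spike-ins. Linked genes called numbered 28, and 17 unscaled. One autophagy gene was lower with normexp (Tfe3), with the stricter filter and without a variance trend (Atg10 in both); without a variance trend 12 were higher, with Ulk1, Atg2a and Wdr45 lost. Without the 2 dimmest arrays, a setting chosen after seeing the data, 9 were higher and 2 lower. Leaving out 1 array gave 10 to 14 higher and 0 to 1 lower, 4423 to 5576 genes called in all, and 21 to 27 linked genes called. The replicate block gave 14 higher and 0 lower and 5472 genes called; beyond Wdr45 it changed no call among the autophagy genes. Same-numbered arrays correlated at 0.25, 0.40, -0.22 and -0.03 in their deviations from the group means; replicates 1 and 2 correlated best with their own number and replicates 3 and 4 did not, so not every pair deviated together and the numbers were not taken as pairs. The cause of these changes was not tested. Genes near background could not be measured, which left 8 of 37 without a value.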
